A study of Homo sapiens with 12 samples.

Results

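The 9 genes described here encode long-chain acyl-CoA synthetases (ACSL1, ACSL3, ACSL4, ACSL5 and ACSL6), arachidonate lipoxygenases with the 5-lipoxygenase activating protein (ALOX15, ALOX5 and ALOX5AP) and cytochrome P450 oxidoreductase (POR). They were chosen by gene symbol for their roles in forming and oxidizing unsaturated lipids, with earlier results of these data known. They are 9 of the 36866 genes in the deposited table. Poly(A) mRNA was sequenced from 2 human acute myeloid leukemia (AML) cell lines of monocytic type with complex karyotypes, THP-1 and U-937. The 4 groups were THP-1 with 0.1% DMSO, THP-1 with honokiol, U-937 with 0.1% DMSO and U-937 with honokiol, a small molecule from magnolia bark, each after 24 h and each with 3 libraries (12 in all). The labels list 20 and 35 μM honokiol without naming the line, so dose and line cannot be told apart in any comparison between the lines. Each line is a single cell line, and although the methods say in general that experiments were repeated, neither they nor the labels state whether the 3 libraries of a group came from separate cultures, so p-values measure the spread between libraries, which may be technical.

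Long-chain acyl-CoA synthetases join a free fatty acid to coenzyme A, the form in which it enters phospholipids, triglycerides or oxidation. ACSL4 prefers arachidonic acid and related polyunsaturated fatty acids, and phospholipids that carry them are the substrate of lipid peroxidation in ferroptosis, an iron-dependent form of cell death, whereas ACSL3 is known for activating monounsaturated fatty acids. Lipoxygenases add oxygen to polyunsaturated fatty acids, in monocytic cells on the way to leukotrienes and other lipid mediators, and POR passes electrons from NADPH to cytochrome P450 enzymes and is another source of lipid peroxidation. In the pathway column of the table, 6 of the 9 genes (the 5 ACSL genes and ALOX15) carry the KEGG ferroptosis annotation, 5 the PPAR signaling annotation and 2 the arachidonic acid annotation.

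Among the sequences before the transcription starts, those of ACSL1, ACSL3 and ACSL4 are shown because these 3 synthetases were the ones with higher mean FPKM under honokiol in both lines, and that of ALOX5AP because it was the most abundant of the 9 genes in THP-1 cells. Each is a window of 300 bases in GRCh38.p14, from 250 bases before to 50 bases after a RefSeq transcription start, written 5′ to 3′ on the strand of the gene, with every GC box (the letters GGGCGG on either strand, the motif bound by SP1-type factors) in capitals. The windows are chr4:184825919-184826218 on the minus strand for ACSL1, chr2:222860786-222861085 on the plus strand for ACSL3, chrX:109733208-109733507 on the minus strand for ACSL4 and chr13:30713235-30713534 on the plus strand for ALOX5AP.
ACSL1: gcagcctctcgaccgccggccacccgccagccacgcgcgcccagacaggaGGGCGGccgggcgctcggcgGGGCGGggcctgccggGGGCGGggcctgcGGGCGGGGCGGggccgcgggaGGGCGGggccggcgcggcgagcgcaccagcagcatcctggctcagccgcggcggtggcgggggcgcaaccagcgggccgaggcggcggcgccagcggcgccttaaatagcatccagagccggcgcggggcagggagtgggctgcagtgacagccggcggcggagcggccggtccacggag
ACSL3: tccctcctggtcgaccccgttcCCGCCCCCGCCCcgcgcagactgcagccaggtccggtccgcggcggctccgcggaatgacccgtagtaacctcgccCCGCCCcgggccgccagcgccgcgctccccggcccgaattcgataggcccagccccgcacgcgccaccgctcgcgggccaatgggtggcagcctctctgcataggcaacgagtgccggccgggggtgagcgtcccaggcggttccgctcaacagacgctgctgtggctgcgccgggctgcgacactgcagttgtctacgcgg
ACSL4: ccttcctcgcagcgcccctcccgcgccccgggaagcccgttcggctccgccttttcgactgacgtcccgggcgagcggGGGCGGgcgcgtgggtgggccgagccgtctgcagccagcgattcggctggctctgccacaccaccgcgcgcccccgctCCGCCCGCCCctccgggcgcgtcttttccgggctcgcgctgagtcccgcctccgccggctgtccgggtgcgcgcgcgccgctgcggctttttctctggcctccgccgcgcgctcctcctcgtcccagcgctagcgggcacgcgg
ALOX5AP: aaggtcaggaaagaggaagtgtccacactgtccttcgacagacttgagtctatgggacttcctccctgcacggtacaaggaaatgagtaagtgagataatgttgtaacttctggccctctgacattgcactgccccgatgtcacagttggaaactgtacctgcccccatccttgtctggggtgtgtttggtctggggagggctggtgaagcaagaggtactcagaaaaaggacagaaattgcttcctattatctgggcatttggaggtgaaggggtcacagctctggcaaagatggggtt
The ACSL1 window held 6 GC boxes and was 82.3% G and C, the ACSL3 window held 3 and was 74.0%, and the ACSL4 window held 3 and was 77.7%. The ALOX5AP window held none and was 50.3% G and C, and the window used for ACSL5 also held none, at 51.0%. Of all 34943 RefSeq windows of this length, 44.9% held a GC box, and their median G and C content was 58.7%. Other short motifs were searched on both strands. The TATA box TATAAA, held by 11.6% of all windows, was in none of the 6 windows found for these genes. The same was so for the E-box CACGTG (7.23% of all windows). It was also so for the AP-1 site TGANTCA (7.72%) and the C/EBP site TTGCNNAA (10.5%). The PPAR element, a pair of half-sites AGGTCA with 1 base between them, was in none either, and in 0.0229% of all windows. The nuclear receptor half-site AGGTCA (13.8% of all windows) was absent from the ACSL1, ACSL3 and ACSL4 windows and stood at position -249 of the ALOX5AP window, counted from the transcription start. The antioxidant response element core TGACNNNGC (13.3%) was likewise absent from those 3 and stood at position -131 of the ALOX5AP window. Of the windows printed, the ACSL3 window held the CCAAT box CCAAT (34.6% of all windows), at position -75. Neighbouring GC boxes overlap in the ACSL1 and ACSL4 windows, and a match of letters is a description and not a binding site. Windows were found for 6 of the 9 genes, and 1 of several was used for ACSL1, ACSL5 and ACSL6.

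The counts of a library summed to between 57406966 and 75065752. Among small values, 4 occurred 17264 times, against 6764 for 3 and 4016 for 5. A sequenced fragment was thus taken to appear mostly as 4 counts, which puts the libraries at about 14351742 to 18766438 fragments. The first DMSO library of each line stood apart by its share of mitochondrially encoded counts, 13.7% in THP-1 and 12.6% in U-937 against 5.61% to 7.55% in the other 10. Values without these 2 libraries are given for some of the genes. All 16 monocytic and myeloid marker genes reached 0.5 FPKM (a level scaled to gene length and sequencing depth) in THP-1 and 15 of 16 in U-937, the exception being MPO, at 0.17 or less there. Of 18 markers of other cell types 14 were in the table, and their summed FPKM was 27.91 to 50.34 in THP-1 with DMSO, 34.74 to 86.44 with honokiol, 15.46 to 21.77 in U-937 with DMSO and 27.29 to 75.14 with honokiol. None of these 14 was at 0 in all THP-1 DMSO libraries, 1 was with honokiol, 4 were in U-937 with DMSO and 6 with honokiol. Without PECAM1 and FABP4, which myeloid cells also express and which were left out after their values were seen, the sums were 1.97 to 6.02 FPKM over all 12 libraries. FABP4, a fatty acid carrier, measured 0.75, 0.07 and 1.67 FPKM in THP-1 with DMSO and 2.39, 32.13 and 21.99 FPKM with honokiol, and in U-937 it measured 0.00, 2.30 and 0.18 FPKM and then 5.69, 5.44 and 47.86 FPKM. Its libraries were thus higher with honokiol in both lines but spread widely, and its part in the results below was not tested. In bulk samples such as these, fewer cells of a type and less RNA per cell cannot be told apart.

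ACSL1, on chromosome 4 (ENSG00000151726, 184755595 to 184826119, minus strand, GRCh38), is the synthetase best known for fatty acid uptake and triglyceride synthesis. In THP-1 cells it measured 14.63, 13.51 and 17.19 FPKM with DMSO and 21.36, 25.40 and 25.24 FPKM with honokiol. In U-937 cells it measured 22.95, 28.66 and 17.06 FPKM with DMSO and 42.44, 43.65 and 54.45 FPKM with honokiol. Every honokiol library was above every DMSO library of its line, and the U-937 honokiol libraries held the highest levels of all 12. The log2 fold change of honokiol over DMSO in edgeR's quasi-likelihood test was 0.61 for THP-1 (SE 0.14, Benjamini-Hochberg adjusted p = 0.175) and 0.94 for U-937 (SE 0.22, adjusted p = 0.116). Neither passed the criterion, an adjusted p under 0.05 with an absolute log2 fold change over 1. By DESeq2 the adjusted p was 0.0190 for THP-1 (log2 fold change 0.60) and 0.00524 for U-937 (0.93), with both folds under the limit of 1. One edgeR fit of all 12 libraries gave an adjusted p of 0.0437 in U-937, also at 0.93. Leaving out 1 library at a time gave 0.52 to 0.69 in THP-1 (edgeR adjusted p of 0.143 to 0.643). In U-937 the same fits gave 0.74 to 1.12 (adjusted p of 0.153 to 0.350).

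ACSL3, on chromosome 2 (ENSG00000123983, 222860942 to 222942222, plus strand), encodes the synthetase of the endoplasmic reticulum and of forming lipid droplets. It measured 19.90, 20.40 and 18.01 FPKM in THP-1 with DMSO and 24.78, 28.16 and 27.64 FPKM with honokiol. In U-937 it measured 8.29, 12.80 and 11.53 FPKM with DMSO and 17.47, 15.72 and 22.25 FPKM with honokiol. The treatments again did not overlap within a line, while the whole range was higher in THP-1, where the DMSO libraries lay at the level of the U-937 honokiol libraries. By edgeR honokiol over DMSO gave 0.41 on the log2 scale in THP-1 (SE 0.13, adjusted p = 0.286) and 0.69 for U-937 (SE 0.19, adjusted p = 0.160), and neither passed the criterion. Without the first DMSO library of a line, the difference was 0.47 for THP-1 and 0.54 for U-937. The difference in THP-1 was 0.37 without the second honokiol library of that line. DESeq2 gave ACSL3 an adjusted p of 0.0440 in U-937, with the fold under the limit of 1, and of 0.160 in THP-1.

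ACSL4, on chromosome X (ENSG00000068366, 109624244 to 109733392, minus strand), is the synthetase whose activity sets the sensitivity of many cells to ferroptosis. It measured 12.10, 9.22 and 10.84 FPKM in THP-1 with DMSO and 10.97, 22.61 and 11.80 FPKM with honokiol. A single honokiol library stood far above the rest, and the other two lay within the range of the DMSO libraries. The log2 fold change in THP-1 was 0.43 (SE 0.29, edgeR adjusted p = 0.539), and 0.02 without the second honokiol library. In U-937 it measured 9.78, 12.60 and 12.32 FPKM with DMSO and 25.77, 12.86 and 16.54 FPKM with honokiol. These groups did not overlap, but the lowest honokiol library was only slightly above the highest DMSO library, and the log2 fold change was 0.59 (SE 0.25, edgeR adjusted p = 0.287). Leaving out 1 library at a time moved the U-937 value between 0.27 and 0.80 and the THP-1 value between 0.02 and 0.62, so the size of the ACSL4 difference rested on single libraries in both lines. KCNE5 shares 78 exonic bases with ACSL4 on the same strand and reached at most 1.0 FPKM.

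ACSL5, on chromosome 10 (ENSG00000197142, 112374018 to 112428380, plus strand), is a synthetase of mitochondria and the endoplasmic reticulum. It measured 15.96, 14.04 and 11.61 FPKM in THP-1 with DMSO and 12.53, 12.59 and 12.77 FPKM with honokiol, so that the honokiol libraries lay inside the DMSO range. In U-937 it measured 14.21, 14.20 and 14.39 FPKM with DMSO and 17.85, 18.52 and 17.04 FPKM with honokiol, without overlap. EdgeR estimated a log2 fold change of -0.20 (SE 0.17, adjusted p = 0.632) for THP-1 and of 0.23 (SE 0.11, adjusted p = 0.356) for U-937. The THP-1 value was -0.03 without the first DMSO library and -0.34 without the third. ZDHHC6, on the opposite strand, shares 144 exonic bases with ACSL5 and reached 16.03 FPKM, and whether the authors' counting used strand is not stated.

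ACSL6, on chromosome 5 (ENSG00000164398, 131949973 to 132012177, minus strand), is best known from brain and the red cell lineage. It was listed at 0.00 or 0.01 FPKM in each of the 12 libraries, with 2 counts in 1 THP-1 DMSO library, 16 in 1 THP-1 honokiol library, 8 in 1 U-937 DMSO library and 0 in the other 9. At about 4 counts a fragment this is a handful of fragments at most, and the gene was under the limit of 0.5 FPKM for testing in every comparison. In fits without that limit its adjusted p by edgeR was between 0.563 and 0.768, and no fold is given for so few fragments.

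**Figure D1:**
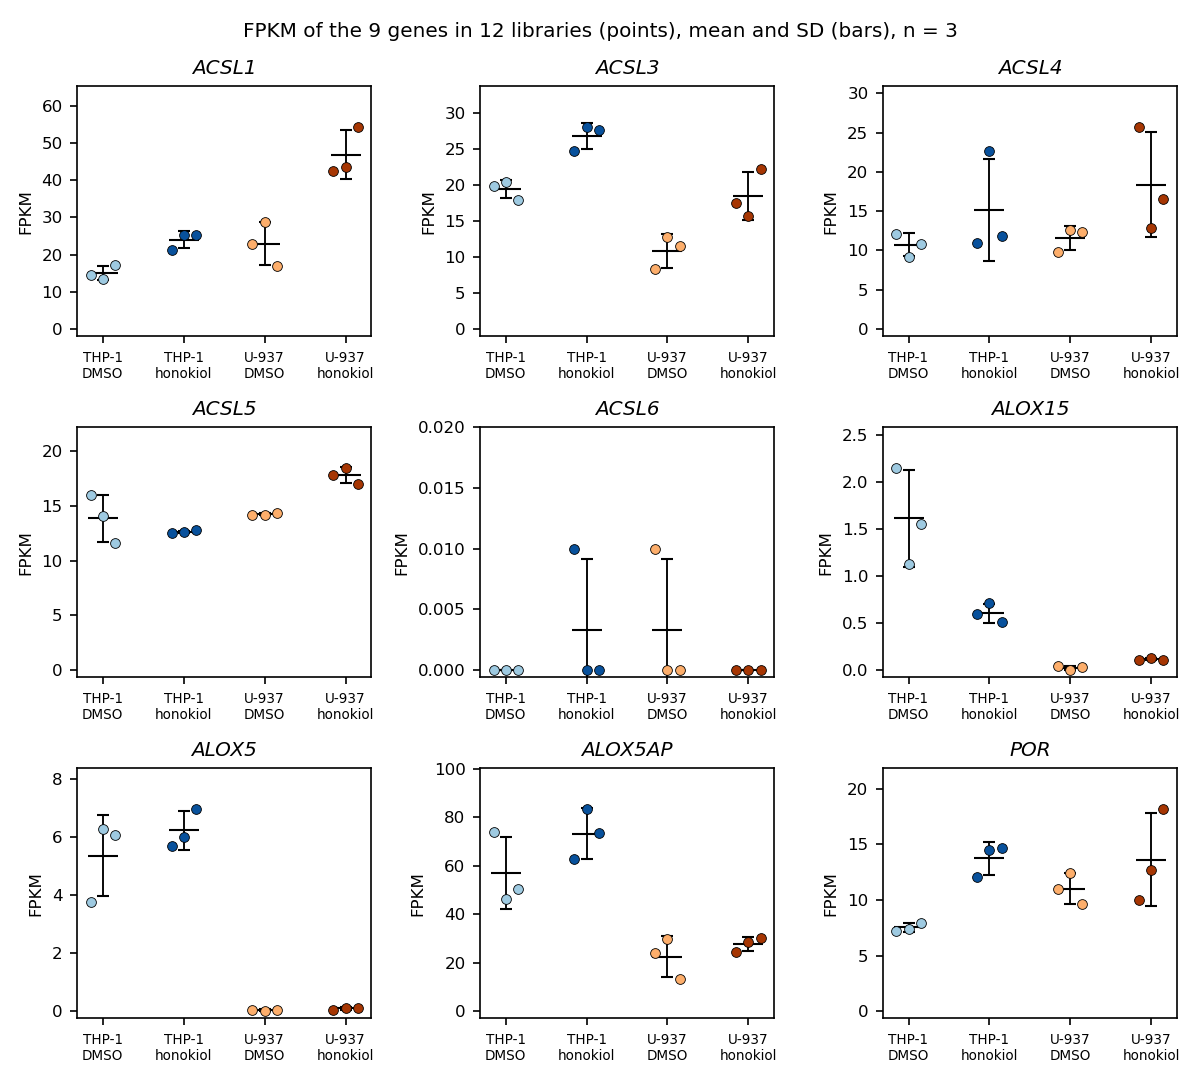
FPKM of the 9 genes in each of the 12 libraries (points) with the mean and SD of each group of 3 (bars), on a linear axis of its own for each gene. Within each line, ACSL1 and ACSL3 were higher in all honokiol libraries than in any DMSO library, ALOX5 and ALOX15 were near 0 in U-937, and a single THP-1 honokiol library at 22.61 FPKM carried the higher ACSL4 mean.

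FPKM is scaled to length, so the 5 synthetases can be set beside each other. Their summed level was 59.1 ± 3.0 FPKM (SD, n = 3) in THP-1 with DMSO and 78.6 ± 9.61 with honokiol. In U-937 it was 59.6 ± 7.50 with DMSO and 102 ± 9.92 with honokiol. The lines thus started from nearly the same summed level, but with a different composition. ACSL3 made up 32.9% ± 2.42 of it in THP-1 with DMSO against 18.2% ± 2.96 in U-937, while ACSL1 made up 25.6% ± 3.65 in THP-1 against 38.1% ± 6.31 in U-937. With honokiol the ACSL1 share was 30.6% ± 1.99 in THP-1 against 46.2% ± 4.52 in U-937, and in both lines its range overlapped that with DMSO. In THP-1 ACSL5 made up 23.4% ± 2.86 of the sum in DMSO and 16.2% ± 1.92 in honokiol libraries, and in U-937 24.2% ± 2.93 and 17.7% ± 2.51. The ACSL5 shares did not overlap between treatments in either line (20.1% to 25.5% against 14.2% to 18.0% in THP-1, 20.8% to 26.0% against 15.5% to 20.4% in U-937), although its own level was not lower with honokiol in U-937. The shares were not tested, since the parts of a sum move together.

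**Figure D2:**
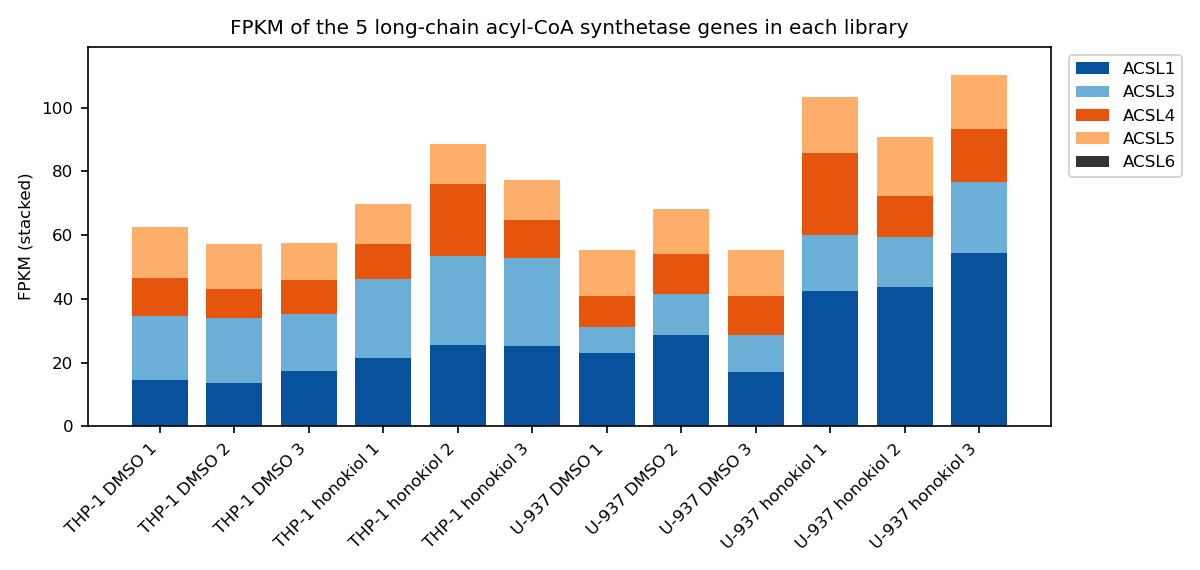
Stacked FPKM of ACSL1, ACSL3, ACSL4, ACSL5 and ACSL6 in each library. The DMSO libraries of both lines summed to between 55.24 and 68.26 FPKM, the THP-1 honokiol libraries to between 69.65 and 88.76 and the U-937 honokiol libraries to between 90.75 and 110.28, with ACSL1 the largest part in each U-937 library.

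ALOX15, on chromosome 17 (ENSG00000161905, 4630919 to 4641935, minus strand), oxygenates arachidonic and linoleic acid, also when these are part of membrane phospholipids. In THP-1 it measured 2.15, 1.13 and 1.55 FPKM with DMSO (536, 286 and 379 counts) and 0.59, 0.71 and 0.51 FPKM with honokiol (179, 201 and 135 counts). All honokiol libraries were below all DMSO libraries. Honokiol over DMSO came to a log2 fold change of -1.49 (SE 0.33, edgeR adjusted p = 0.168), which is past the fold limit but not the adjusted threshold, and -1.16 without the first DMSO library. DESeq2 gave -1.50 with an adjusted p of 0.00157, so the call differed between the tools. In U-937 the gene was at 0.04, 0.00 and 0.03 FPKM with DMSO (10, 0 and 8 counts) and at 0.11, 0.13 and 0.11 FPKM with honokiol (27, 30 and 27 counts). These levels also did not overlap, with the honokiol libraries higher, but they amount to a few fragments per library and the gene was under the limit of 0.5 FPKM for testing. In a fit without that limit the log2 fold change in U-937 was 2.13 (SE 1.05, edgeR adjusted p = 0.563).

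ALOX5, on chromosome 10 (ENSG00000012779, 45374176 to 45446119, plus strand), makes the first product on the way to leukotrienes. It measured 3.75, 6.28 and 6.05 FPKM in THP-1 with DMSO and 5.70, 6.01 and 6.98 FPKM with honokiol, with overlap and a log2 fold change of 0.17 (SE 0.19, edgeR adjusted p = 0.724) that was 0.0045 without the first DMSO library and 0.28 without the second. In U-937 it was at 0.05, 0.01 and 0.05 FPKM with DMSO (13, 4 and 18 counts) and 0.04, 0.12 and 0.12 FPKM with honokiol (13, 32 and 34 counts). All 6 U-937 libraries were thus close to the level of single fragments, and the gene was under the limit for testing there. Without that limit its log2 fold change was 1.15 (SE 0.78, edgeR adjusted p = 0.563). An antisense gene, AL731567.1, overlaps ALOX5 and reached at most 1.27 FPKM.

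ALOX5AP, on chromosome 13 (ENSG00000132965, 30713478 to 30764426, plus strand), encodes the membrane protein that presents arachidonic acid to 5-lipoxygenase. It was the most abundant of the 9 genes in THP-1, with 74.00, 46.39 and 50.41 FPKM with DMSO and 62.98, 83.70 and 73.38 FPKM with honokiol. In U-937 it measured 23.98, 29.94 and 13.39 FPKM with DMSO and 24.37, 28.68 and 30.23 FPKM with honokiol. The treatments overlapped in both lines, with log2 fold changes of 0.29 (SE 0.23, edgeR adjusted p = 0.604) and 0.21 (SE 0.28, adjusted p = 0.753). Without the first DMSO library, the one of THP-1 with the higher mitochondrial share, the log2 fold change in THP-1 was 0.59 (adjusted p = 0.240). In U-937 it was -0.08 without the third DMSO library, where the gene was lowest, and 0.45 without the second. U-937 cells with DMSO thus held mRNA for the activating protein at a mean of 22.4 FPKM, near the 22.9 FPKM of ACSL1, while ALOX5 itself was close to 0.

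POR, on chromosome 7 (ENSG00000127948, 75899200 to 75986855, plus strand), had the smallest p of the 9 genes in THP-1. It measured 7.25, 7.38 and 7.95 FPKM with DMSO and 12.06, 14.47 and 14.70 FPKM with honokiol, 2 narrow groups well apart from each other. The log2 fold change was 0.81 (SE 0.13, edgeR adjusted p = 0.0831), and between 0.77 and 0.89 over all alternatives. DESeq2 gave an adjusted p of 6.70e-05 at a log2 fold change of 0.80, under the limit of 1. In U-937 the levels were 11, 12.44 and 9.61 FPKM with DMSO and 9.97, 12.73 and 18.24 FPKM with honokiol. A single honokiol library was far above the DMSO range, and the log2 fold change of 0.22 (SE 0.23, edgeR adjusted p = 0.678) became -0.06 without it.

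Over the 9 genes, the criterion called 0 of the 8 tested genes in THP-1 by edgeR, beside 0.0411% of all 14600 genes tested, and 0 of 6 in U-937, beside 0.0947% of 13726. At an unadjusted p under 0.05 the counts were 4 of 8 for THP-1 (ACSL1, ACSL3 and POR higher, ALOX15 lower), beside 13.1% of all genes, and 3 of 6 in U-937 (ACSL1, ACSL3 and ACSL4, all higher), beside 16.7%. With an unadjusted p under 0.05 and the fold limit, 1 gene (ALOX15) passed in THP-1, beside 2.79% of all genes. DESeq2 called the same gene there, beside 1.71% of all genes, and 0 genes in U-937, beside 1.62%. At an adjusted p under 0.05 alone, ACSL1, ALOX15 and POR passed by DESeq2 in THP-1, beside 3.46% of all genes. In U-937 ACSL1 and ACSL3 did, beside 5.76%. By limma-trend the calls were 0 in both lines, beside 0.0% and 0.117% of all genes. The treatments did not overlap for 4 of the 8 tested genes in THP-1, beside 20.6% of all genes, and for 4 of the 6 in U-937 (ACSL1, ACSL3, ACSL4 and ACSL5), beside 24.2%. The tested genes had a median log2 fold change of 0.35 (THP-1) and 0.41 (U-937), beside -0.00 and 0.02 over all genes. ACSL6 was not tested in either line, and ALOX15 and ALOX5 were not tested in U-937.

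**Figure D3:**
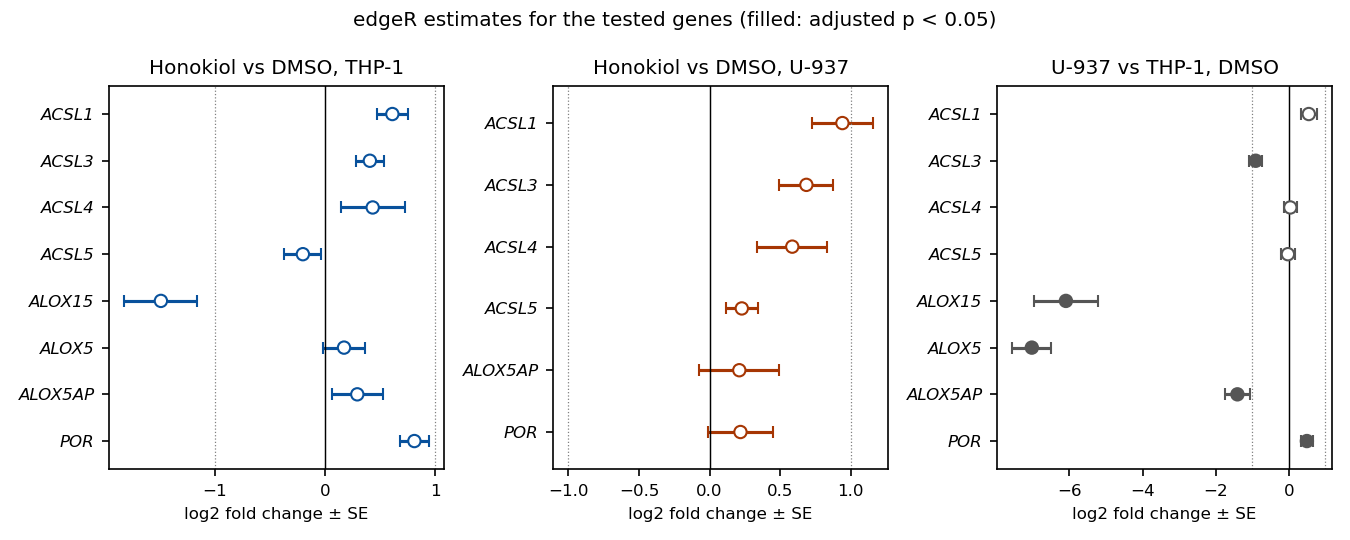
Log2 fold changes with their SE from edgeR for the genes tested in each comparison, with dotted lines at -1 and 1 and filled points where the adjusted p was under 0.05. All points are open for honokiol against DMSO in THP-1 (ALOX15 at -1.49, POR at 0.81) and in U-937 (ACSL1 at 0.94). For U-937 against THP-1 with DMSO 5 of 8 are filled, beside 47.3% of all genes. ALOX5 (at -7.03) and ALOX15 passed the filter there only through the THP-1 libraries, so nothing is read from this count.

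The DMSO libraries of the lines were compared to describe the state from which each line started. ALOX5, ALOX15 and ALOX5AP were lower in U-937 than in THP-1, ACSL3 was lower and POR higher. The log2 fold change of U-937 over THP-1 was -7.03 for ALOX5 (SE 0.53, edgeR adjusted p = 2.16e-05), -6.10 for ALOX15 (SE 0.87, adjusted p = 0.000578) and -1.40 for ALOX5AP (SE 0.33, adjusted p = 0.00860). The estimates for ALOX5 and ALOX15 rest on a few fragments in U-937. These 3 genes were called, 3 of 8 tested beside 32.4% of all 14617 genes. ALOX5 and ALOX15 passed the filter on low values only through the THP-1 libraries, where they are high. Nothing is thus read from their p-values, from this count or from the counts below that include them. ACSL3, at -0.90 (SE 0.18, adjusted p = 0.00376), and POR, at 0.50 (SE 0.16, adjusted p = 0.0356), passed the adjusted threshold with a smaller fold, which gives 5 of 8 beside 47.3%. The groups did not overlap for the same 5 genes, beside 57.6% of all genes. ACSL1 was at 0.55 (SE 0.22, adjusted p = 0.0687), ACSL4 at 0.04 (adjusted p = 0.859) and ACSL5 at -0.02 (adjusted p = 0.935), each with overlap. POR stayed under the adjusted threshold in 1 of the 6 fits with a library left out, and its adjusted p was 0.0887 without the first THP-1 library and 0.0561 without the first U-937 library. ACSL1 came to 0.79 (adjusted p = 0.0137) without the third U-937 library.

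The order of the 4 group means differed between the genes. For ACSL1 it was U-937 honokiol (46.8 ± 6.61 FPKM), THP-1 honokiol (24.0 ± 2.29), U-937 DMSO (22.9 ± 5.80) and THP-1 DMSO (15.1 ± 1.89), in which only the first neighbours did not overlap. For ACSL3 it was THP-1 honokiol (26.9 ± 1.82), THP-1 DMSO (19.4 ± 1.26), U-937 honokiol (18.5 ± 3.38) and U-937 DMSO (10.9 ± 2.33), in which only the middle pair overlapped. The 4 ACSL4 means, from 18.4 ± 6.65 in U-937 honokiol to 10.7 ± 1.44 in THP-1 DMSO, overlapped at every step. For ALOX15 no neighbours overlapped (1.61 ± 0.513 in THP-1 DMSO, 0.603 ± 0.101 in THP-1 honokiol, 0.117 ± 0.0115 in U-937 honokiol and 0.0233 ± 0.0208 in U-937 DMSO). ALOX5 and ALOX5AP overlapped between treatments within each line and not between the lines. For POR, both honokiol means were alike (13.7 ± 1.46 in THP-1 and 13.6 ± 4.21 in U-937), and the only step without overlap was between the DMSO groups.

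Whether honokiol acted differently in the lines was tested by the interaction in one fit of the 12 libraries. None of the 8 tested genes passed an adjusted p under 0.05 by edgeR, beside 0.111% of all 16283 genes, and DESeq2 called 1, beside 1.5%. The same gene had an unadjusted p under 0.05, beside 9.37% of all genes, and was also past the fold limit, beside 4.29%. It was ALOX15, lower with honokiol in THP-1 and higher in U-937, with a difference of log2 fold changes of 3.64 (U-937 minus THP-1, SE 0.92, edgeR adjusted p = 0.266). Next were POR at -0.60 (adjusted p = 0.537) and ACSL5 at 0.42 (adjusted p = 0.544). For ACSL1 the difference was 0.32 (adjusted p = 0.777), for ACSL3 0.27 (0.790), for ACSL4 0.14 (0.968), for ALOX5 0.99 (0.647) and for ALOX5AP -0.10 (0.983). These p-values do not show that the lines responded alike. ALOX15 and ALOX5 passed the filter of this fit only through the THP-1 libraries, where they are high. Nothing is read from their p-values or from the counts that include ALOX15.

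For the 3 genes with the widest range of group means on the log2(FPKM + 0.5) scale, the genes with the most similar pattern were sought among 16283, by the mean absolute difference of centred values over the 12 libraries. For ALOX5 (range 3.64) they were OGDHL at 0.0647, ZNF736 at 0.0940 and TWIST1 at 0.103. For ALOX15 (range 1.98) they were RXFP1 at 0.176, WDR91 at 0.190 and LINC02701 at 0.194. For ALOX5AP (range 1.75) they were OSTM1 at 0.151, WNK1 at 0.157 and CCR1 at 0.180. The patterns share the step between the lines and the same 12 libraries.

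The other genes of these pathways were read from 6 lists, 120 genes in all. With honokiol 0 of the 98 tested THP-1 genes and 0 of the 86 tested U-937 genes passed an adjusted p under 0.05 by edgeR. Over all genes 6 of 14600 and 13 of 13726 passed. At an unadjusted p under 0.05 13 were higher and 6 lower in THP-1, and 15 were higher and 4 lower in U-937, beside 13.1% and 16.7% of all genes in either direction. At an adjusted p under 0.05 DESeq2 gave 6 for THP-1 (ACBD4, ACOT11, CYP1B1, CYP27A1, CYSLTR1 and MTRR), beside 3.46% of all genes. It gave 8 for U-937 (ACOT7, ACSF2, AGPAT4, CYP20A1, LPCAT3, PNPLA8, PTGS1 and SCD), beside 5.76%. For the interaction it gave 3 (ACOT11, MTRR and SCD), beside 1.5%, while limma-trend gave 0 in both lines. One edgeR fit of the 12 libraries gave 1 of 103 for THP-1 (MTRR), beside 37 of all 16283 genes. The same fit gave 4 of 103 for U-937 (ACOT7, ACSF2, PTGS1 and SCD), beside 207 of all 16283. CYP27A1 passed in THP-1 without the first honokiol library, where 43 of all 14233 genes did. Between the DMSO groups 58 of 100 passed the adjusted threshold, and 45 were called, beside 47.3% and 32.4% of all genes. Some of them, such as ELOVL2 and PLA2G7 at 0.0 FPKM in all U-937 DMSO libraries, passed the filter only through THP-1. Nothing is thus read from these counts.

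Of the other acyl-CoA synthetases, the short- and medium-chain enzymes and the fatty acid transport proteins, 10 of 18 could be tested for THP-1 and 12 for U-937. ACSF2, a mitochondrial medium-chain enzyme, measured 3.17, 2.81 and 3.37 FPKM in U-937 with DMSO and 5.89, 7.63 and 7.11 FPKM with honokiol. Its log2 fold change of 1.05 (SE 0.16, edgeR adjusted p = 0.0637) came closest to the threshold among these lists in U-937. SLC27A2, a very-long-chain synthetase, was at -0.51 there (adjusted p = 0.294), and ACSS1, a mitochondrial acetyl-CoA synthetase, at 0.57 in THP-1 (adjusted p = 0.246). The medians of this list were 0.16 and 0.17 in THP-1 and U-937.

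Acyl-CoA thioesterases reverse the reaction of the synthetases, and acyl-CoA binding proteins hold its product. Of 16 such genes THP-1 allowed a test of 15 and U-937 of 11, with median log2 fold changes of 0.04 and 0.29. In THP-1 the thioesterases ACOT11 and ACOT2 were at -0.70 (edgeR adjusted p = 0.174) and -0.83 (0.284), and the binding protein ACBD4 at 0.92 (0.264). In U-937 the thioesterase ACOT7 was at -0.58 (adjusted p = 0.0872), ACBD5 at 0.54 (0.218) and ACBD3 at 0.34 (0.289).

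Lysophospholipid acyltransferases place the acyl group of acyl-CoA into phospholipids and phospholipases A2 release it again. All 23 of these genes passed the filter in THP-1, against 19 in U-937, with medians of 0.01 and 0.21. LPCAT3, which inserts polyunsaturated chains, measured 11.34, 11.45 and 10.18 FPKM in U-937 with DMSO and 16.97, 16.98 and 19.55 FPKM with honokiol, a log2 fold change of 0.61 (SE 0.14, edgeR adjusted p = 0.114). In THP-1 the same gene was at 0.06 (adjusted p = 0.880), with values of 14.19 to 17.30 FPKM against 15.93 to 18.64 FPKM. AGPAT4 was at 0.59 in THP-1 (adjusted p = 0.266) and 0.67 in U-937 (0.143), PLA2G4A, the cytosolic phospholipase that releases arachidonic acid, at 0.59 in THP-1 (0.317), PNPLA6 at 0.58 in THP-1 (0.285) and PNPLA8 at 0.75 in U-937 (0.163).

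Desaturases and elongases set the double bonds and length of the fatty acids. Of 18 genes 17 passed the filter in THP-1, against 15 in U-937, with medians of -0.12 and 0.10. SCD, which makes monounsaturated fatty acids, averaged 216 ± 53.4 FPKM (SD, n = 3) over the DMSO and 469 ± 73.5 over the honokiol libraries of U-937, which is a log2 fold change of 1.04 (SE 0.20, edgeR adjusted p = 0.0872). In THP-1 it was at 134 ± 2.18 and 128 ± 18.6 FPKM, a log2 fold change of -0.12 (adjusted p = 0.750), and the interaction was 1.16 (adjusted p = 0.165). FADS2, a desaturase of polyunsaturated fatty acids, was at -0.80 in THP-1 (adjusted p = 0.297) and 0.33 in U-937 (0.583). ELOVL4 was at 0.62 in THP-1 (0.381), ELOVL5 at 0.36 in U-937 (0.262) and HACD3 at -0.71 in U-937 (0.246).

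Of 25 other lipoxygenase, leukotriene and prostanoid genes 14 were tested in each line, with medians of 0.19 and 0.20. PTGS1, the constitutive cyclooxygenase, measured 15.01, 15.92 and 15.48 FPKM in THP-1 with DMSO and 19.43, 22.20 and 22.01 FPKM with honokiol. In U-937 it measured 11.14, 8.23 and 11.10 FPKM and 26.96, 21.94 and 16.36 FPKM. It was higher in every honokiol library of both lines, with log2 fold changes of 0.40 (SE 0.12, edgeR adjusted p = 0.266) and 1.0 (SE 0.21, adjusted p = 0.0989). CYSLTR1, a receptor of cysteinyl leukotrienes, was at -1.10 in THP-1 (adjusted p = 0.162) and -0.06 in U-937 (0.921), TBXAS1, the thromboxane synthase, at 0.48 in THP-1 (0.341) and MGST2 at 0.47 in U-937 (0.286).

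The last list held electron transfer partners and heme proteins of the microsomes and mitochondria, 19 of 20 past the filter in THP-1, against 15 in U-937, with medians of 0.14 and 0.16. MTRR, a reductase related to POR that keeps methionine synthase active, had the smallest adjusted p of the 6 lists in THP-1. It averaged 6.86 ± 0.494 FPKM (SD, n = 3) over the DMSO and 3.41 ± 0.0751 over the honokiol libraries, which is a log2 fold change of -1.07 (SE 0.15, edgeR adjusted p = 0.0607), the opposite direction to POR in the same libraries. In U-937 MTRR was at -0.15 (adjusted p = 0.636). CYP27A1 and CYP1B1 were at 1.58 (adjusted p = 0.168) and 1.17 (0.228) in THP-1, and CYP20A1 and CYP4V2 at 1.36 (0.0796) and 0.82 (0.229) in U-937.

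**Figure D4:**
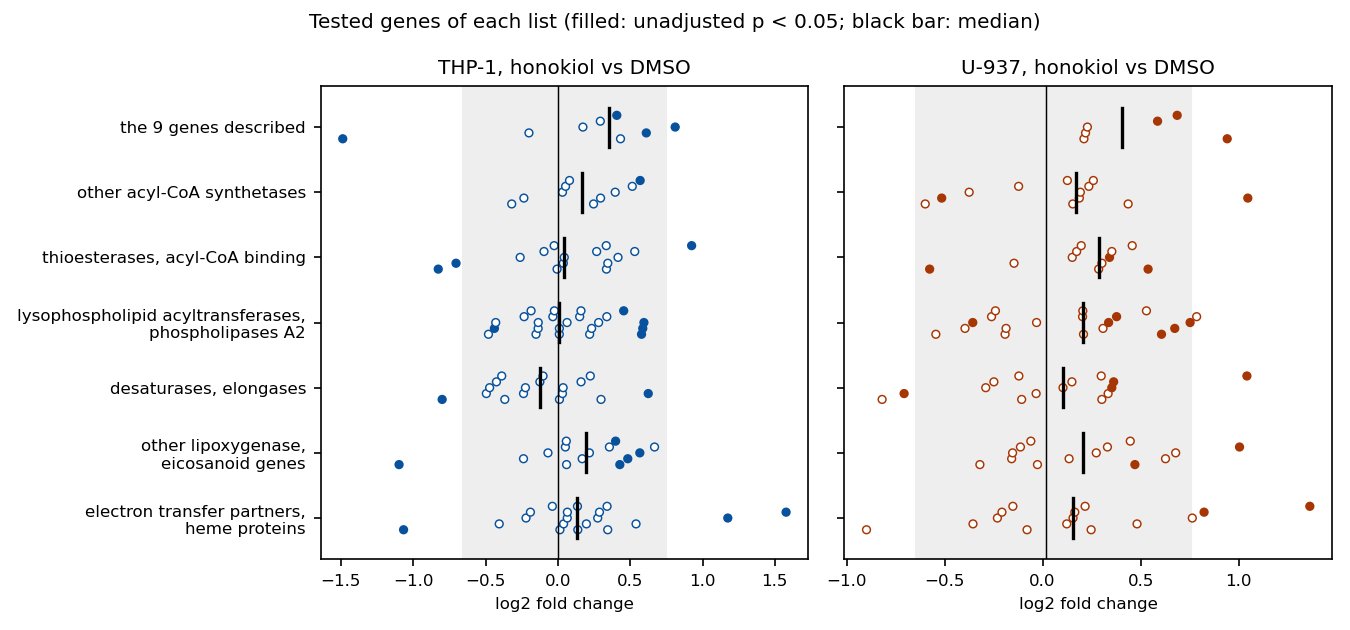
Log2 fold change of honokiol over DMSO for each tested gene of the 9 described and of the 6 other lists, filled where the unadjusted p was under 0.05, with the list's median as a black bar and the 5th to 95th percentile of all tested genes shaded. The medians of the 9 genes, 0.35 and 0.41, lie to the right of those of the 6 lists, which lie between -0.12 and 0.19 for THP-1 and between 0.10 and 0.29 for U-937.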

How the data were processed

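The authors deposited, for 36866 genes in each of 12 libraries, FPKM values (scaled by the authors to gene length and library size) and estimated counts, which the authors did not normalize. Per the labels, the submitters' processing notes list HISAT2 2.0, StringTie 1.3.0, Bowtie 0.12.2 and the mouse build mm8. The table itself holds human genes with GRCh38 coordinates, as checked against GENCODE, and which tool and annotation made the values is not given in the sources used here. Across genes, libraries within a group had Pearson correlations of 0.974 to 0.987 on a log scale, and no library was a copy of another.

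Groups and replicates were taken from the sample titles. Genes with at least 0.5 FPKM in at least 3 libraries of a fit were tested with edgeR 4.0.16 (quasi-likelihood test, TMM normalization, R 4.3.3), each line alone, the DMSO libraries of both lines, and all 12 libraries for the interaction, with Benjamini-Hochberg adjustment over all genes tested. A gene was called at an adjusted p under 0.05 with an absolute log2 fold change over 1, and at the adjusted p alone for the interaction. SEs were derived from the F statistic. EdgeR and DESeq2 took the counts as deposited, so that a fragment mostly entered as about 4 counts. What this does to the DESeq2 p-values of genes with few fragments was not tested. The test recovered known changes in counts simulated from edgeR's own fitted spread, which is the model that the test assumes. A change counted as recovered by its adjusted p and direction, without the fold limit, so the power in these libraries was not measured. Log2 fold changes under 1 in size were not simulated, so nothing is read from the simulation for such folds. Sample numbers were not used as pairs, since the deviations of same-numbered DMSO and honokiol libraries correlated at -0.22 to 0.14. Same-numbered DMSO libraries of the 2 lines correlated at 0.06 to 0.16. In U-937 DMSO libraries 1, 2 and 3 correlated at 0.26, 0.27 and 0.32 with honokiol libraries 2, 3 and 1. Whether libraries share a batch was not tested.

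All 9 genes were named. From the other lists were named the genes with an adjusted p under 0.05 or, where fewer than 3 passed, up to 3 with the smallest unadjusted p under 0.05 in each line. The 9 genes and the lists were chosen with earlier results of these data known. Alternatives were DESeq2 1.42.0, RLE size factors, other filters, limma-trend (limma 3.58.1) on log2(FPKM + pseudocount) with pseudocounts of 0.1, 0.5 and 1, a replicate block, one fit of 12 libraries, other call rules and each library left out. Counts divided by 4 were added after seeing the data, by edgeR only. Over all genes they left 5 calls in THP-1 (6 in the main test) and 10 in U-937 (13). For the interaction they left 0 (18 in the main test). Promoter windows came from RefSeq (GRCh38.p14), and raw reads were not used here.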

Additional observations from a re-analysis of the deposited data

Results flagged for a closer look

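ALOX15 was flagged because its libraries moved in opposite directions in the 2 lines: every honokiol library was below every DMSO library in THP-1 and above every DMSO library in U-937. The difference of the log2 fold changes, U-937 minus THP-1, was 3.64 (SE 0.92, edgeR adjusted p = 0.266), and DESeq2 gave 3.66 with an adjusted p of 0.000506. The U-937 values are 0 to 10 counts with DMSO and 27 to 30 with honokiol, at about 4 counts a fragment, and the part of so few fragments in the difference was not tested. ALOX15 passed the filter of this fit only through the THP-1 libraries, so nothing is read from these p-values. Over the other alternatives the adjusted p was between 0.0978 and 0.531 where 1 library was left out, and limma-trend on the FPKM values gave a difference as small as 0.81.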

How the results depend on the processing

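Of 506 alternative values for 30 single-gene results, 482 kept their direction and side of the criterion, 3 newly passed it and 21 turned direction. The count of the 9 genes called in THP-1 was 0 in the main test and 1 by DESeq2 and by an unadjusted p under 0.05 with the fold limit, in both cases ALOX15. The interaction count was 0, and 1 by the same 2 alternatives. In U-937 it was 0 under each alternative run. Between the DMSO groups it was 3, and 5 at any fold. Leaving out each library in turn gave 1 to 3 there, since without a THP-1 DMSO library ALOX15 and ALOX5 reach the filter in too few libraries, and 0 in each fit for honokiol in both lines and for the interaction. Newly past the criterion were ALOX15 by DESeq2 (-1.50 in THP-1, 3.66 for the interaction) and ACSL3 between the DMSO groups without the third THP-1 library (-1.04).

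The results that turned direction when 1 library was left out ranged, in U-937, from -0.078 to 0.45 for ALOX5AP (below 0 without the third DMSO library) and from -0.060 to 0.40 for POR (below 0 without the third honokiol library). Between the DMSO groups they ranged from -0.15 to 0.17 for ACSL4 and from -0.22 to 0.075 for ACSL5, and for the interaction from -0.18 to 0.55 for ACSL4 and from -0.40 to 0.15 for ALOX5AP. ACSL5 between the DMSO groups, -0.02 by edgeR, was 0.052, 0.051 and 0.049 by limma-trend with pseudocounts of 0.1, 0.5 and 1 and 0.0077 with no filter. The ALOX5 interaction was -0.083 and -0.13 by limma-trend with pseudocounts of 0.5 and 1. None of these passed the threshold in either direction, and the causes were not tested. The pseudocount shrank the folds of low genes: limma-trend gave values as small as -2.59 for ALOX5 and -1.33 for ALOX15 between the DMSO groups, and -0.69 for ALOX15 in THP-1. Over all genes limma-trend moved the median in U-937 from 0.02 to 0.11, 0.09 and 0.08 with pseudocounts of 0.1, 0.5 and 1. The median in THP-1 moved from -0.00 to 0.06, 0.05 and 0.04. FPKM values, which carry no TMM normalization, thus ran slightly higher with honokiol over all genes, and the FPKM levels given here hold this shift.

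With the replicate number as a block, the counts of the 9 genes called stayed at 0 for honokiol in both lines, 3 between the DMSO groups and 0 for the interaction. Over all genes the block left 0 of the 6 THP-1 calls and 0 of the 13 U-937 calls. The numbers are not known to pair the samples, and not every library correlated best with its own number. Over all genes DESeq2 called 250 for THP-1 and 223 for U-937. With 3 libraries a group and a few fragments of ALOX15, ALOX5 and ACSL6 in U-937, these genes were under the filter for honokiol there, and in the fit with no filter none had an adjusted p under 0.05 (0.563 for each).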
